A study of Mus musculus with 16 samples.

Results

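The genes described here are the feedback genes of the ERK pathway: *Spry1*, *Spry2*, *Spry4*, *Spred1*, *Spred2*, *Dusp4*, *Dusp5*, *Dusp6*, *Etv4* and *Etv5*. The 10 genes were chosen by name together with 2 measured contrasts of these data, the RNA level in Kit-low cells over control cells and the m6A IP over its input. Values and calls of the genes in these contrasts are therefore a description, given without p-values, and support nothing. Of the 10 listed genes, 8 were in both count tables, of 15386 genes in the RNA-seq table and 13490 in the m6A table. *Dusp4* and *Etv4* were in neither table and have no value here. All are protein-coding genes, and on GRCm38 *Dusp6* lies at chr10:99263231-99267489, *Etv5* at chr16:22381309-22439719, *Spry1* at chr3:37639947-37644598, *Spred1* at chr2:117121374-117182279, *Spred2* at chr11:19924375-20024026 and *Dusp5* at chr19:53529109-53542431.

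ERK is the last kinase of a relay that carries signals from receptors such as Kit and the erythropoietin receptor through Ras, Raf and MEK. In red cell progenitors, stem cell factor acts through Kit on this relay and favours growth, and Kit is lost from the surface as the cells mature. Active ERK raises the mRNA of a set of genes whose products act back on the relay. Sprouty proteins (Spry) act between the receptor and Raf, and Spred proteins bind neurofibromin, which switches Ras off. DUSP6 and the nuclear DUSP4 and DUSP5 are phosphatases that remove the activating phosphates from ERK. ETV4 and ETV5 are ETS transcription factors of the PEA3 family whose mRNA follows ERK activity. The m6A mark is a methyl group on adenosines of mRNA, written by the enzyme METTL3 together with METTL14, often within the letters GGACT in the DNA alphabet, and it can change how long an mRNA lasts.

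Bulk RNA-seq had been made from sorted bone marrow cells of mice on a C57BL/6 background, as 3 control libraries of CFU-E cells, the late erythroid progenitors, and 3 libraries labelled as Kit-low CFU-E cells of *Mettl3* knockout mice, which is the subset of CFU-E cells with very little Kit on the surface. The deficient mice carried floxed *Mettl3* alleles (*Mettl3* fl/fl) and 1 copy of *EpoR-tdTomato-Cre*, which recombines in erythroid cells and also in the macrophages of erythroblastic islands. The genotype of the controls and the age and sex of the mice behind single libraries are not given by the labels. The m6A profiling by SLIM-seq, a low-input method, had 2 IP libraries and 2 inputs, all from CFU-E cells of control mice. The RNA-seq groups differed in genotype and in the Kit gate at once, which cannot be told apart here, and no library of control cells with low Kit was analysed.

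RNA-seq libraries held 17429262 to 21329242 counts, m6A libraries 19421059 to 37142742. *Mettl3* mRNA stood at 123 ± 7.43 CPM (counts scaled to the library size by TMM, mean ± SD, n = 3) in control libraries, against 117 ± 9.52 CPM in the other group (SD, n = 3). Its level thus did not separate the groups. A count over the whole gene may not show the loss of floxed exons, so this value does not check the deletion. The paper reported that erythroid cells of the deficient mice lacked *Mettl3* mRNA, by qRT-PCR, and METTL3 protein, by Western blot. The other RNA-seq group is called here the libraries labelled *Mettl3*-deficient, or the Kit-lo libraries. *Kit*, whose protein defined the gate, stood at 598 ± 47.1 and 55.2 ± 12.4 CPM (SD, n = 3). The 10 erythroid markers were counted in every RNA-seq library, with 6 called higher in the Kit-lo libraries, against 12.1% of all genes tested. Their summed level was 11359 to 12297 CPM in control and 11153 to 13342 CPM in Kit-lo libraries. Early progenitor markers summed to 245 to 264 CPM in control and to 87.5 to 102 CPM in Kit-lo libraries, without overlap. Of 5 tested, 2 were called lower, against 9.83% of all genes tested. Macrophage markers summed to 22.7 to 27.2 CPM in control and 12.9 to 16.0 CPM in Kit-lo libraries, with *Adgre1*, *C1qb*, *Mrc1* and *Cd5l* at 0 in some library. Of 6 macrophage markers tested, 2 were called lower. Mast cell and basophil markers summed to 1.37 to 5.10 CPM and 0 to 2.92 CPM, with all 4 of those in the table (*Cpa3*, *Mcpt8*, *Prss34* and *Ms4a2*) at 0 in some library. Granulocyte markers summed to 25.8 to 39.2 CPM in control and 16.1 to 24.8 CPM in Kit-lo libraries, with *Ctsg*, *S100a8*, *Ltf* and *Ngp* at 0 in some library. Of 4 granulocyte markers tested, 1 was called higher and 1 lower. Megakaryocyte markers summed to 4.31 to 6.63 CPM and 6.73 to 16.0 CPM, with 2 of 3 tested called higher and *Pf4* at 0 in some library, and lymphoid markers to 1.25 to 1.43 CPM and 1.45 to 3.54 CPM. Whether these differences in stage and cell type had a part in the values of the feedback genes was not tested. The labels do not say whether replicates came from separate animals, so p-values measure only the spread between these libraries, and in bulk samples fewer cells of a type and less RNA per cell cannot be told apart.

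*Spry2* was the only feedback gene past the threshold for m6A enrichment, and its mRNA is shown first for that reason. In its 2087-base transcript (ENSMUST00000022709.5, GENCODE M21, minus strand of chromosome 14, GRCm38), the letters GGACT occurred 7 times. They fell 3 times in the 5′ UTR, 3 times in the coding sequence and once in the 3′ UTR. Each window below is 21 bases of that transcript, 5′ to 3′, with GGACT in capitals, and is named by the position of its first capital in the transcript.
Spry2 position 63, 5′ UTR, chr14:105896745-105896765: acggtggaGGACTgggttcca
Spry2 position 117, 5′ UTR, chr14:105896691-105896711: tggaagttGGACTgaagcaga
Spry2 position 159, 5′ UTR, chr14:105896649-105896669: ttgcatcaGGACTggatttat
Spry2 position 820, coding sequence, chr14:105893202-105893222: aggtgtgaGGACTgcggcaag
Spry2 position 874, coding sequence, chr14:105893148-105893168: ctgccgtcGGACTggatctgt
Spry2 position 930, coding sequence, chr14:105893092-105893112: tgactatgGGACTtgtgtgtg
Spry2 position 1843, 3′ UTR, chr14:105892179-105892199: ttccctttGGACTtgatgtat

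That density, 3.35 GGACT per kb, was above that of 98.9% of the genes tested in the m6A table, whose median was 1.03 per kb. *Dusp6* followed with 8 occurrences, 2.86 per kb, above 97.5% of the genes, and 6 of them lay in its coding sequence. *Spry1* had 6 (2.16 per kb), *Spred2* 7 (1.57 per kb) and *Etv5* 6 (1.51 per kb, 4 of them in the 3′ UTR). *Spred1* with 4 (0.665 per kb), *Dusp5* with 2 (0.809 per kb) and *Spry4* with 2 (0.421 per kb) lay below the median. A match of letters is no modified site, and the counts per gene do not say where in an mRNA the mark lay. Over all tested genes, the median density was 0.924 per kb in the m6A-modified ones and 1.06 per kb in those lower in the IP.

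Promoters of *Dusp6* and *Etv5*, the genes besides *Spry4* called lower in the Kit-lo libraries, are shown as RefSeq gives them on GRCm38.p6, from 250 bases before the start of the gene to 50 bases from the start on, the latter in capitals. *Etv5* had a further RefSeq start, which is not shown.
Dusp6 promoter, plus strand, chr10:99262981-99263280: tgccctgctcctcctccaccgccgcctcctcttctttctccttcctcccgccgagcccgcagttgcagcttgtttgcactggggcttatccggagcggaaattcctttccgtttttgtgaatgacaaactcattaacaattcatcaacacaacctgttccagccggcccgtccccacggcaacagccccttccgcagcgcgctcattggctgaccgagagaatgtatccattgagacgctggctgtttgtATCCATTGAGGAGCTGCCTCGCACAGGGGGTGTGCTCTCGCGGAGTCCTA
Etv5 promoter, minus strand, chr16:22439521-22439820: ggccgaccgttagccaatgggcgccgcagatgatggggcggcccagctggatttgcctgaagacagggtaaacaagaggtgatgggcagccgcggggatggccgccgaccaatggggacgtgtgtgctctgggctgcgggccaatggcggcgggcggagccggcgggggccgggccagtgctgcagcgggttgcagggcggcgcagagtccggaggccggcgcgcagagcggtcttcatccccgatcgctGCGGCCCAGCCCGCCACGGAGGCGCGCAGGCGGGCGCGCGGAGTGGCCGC

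Neither window held, on either strand, the ETS letters CCGGAA, the CREB letters TGACGTCA, the GATA letters AGATAA or the CArG box bound by serum response factor. The 8 RefSeq promoters examined came from 7 of the genes, without *Spry4*, *Dusp4* and *Etv4*. Of these 8, 1 held CCGGAA (*Spry2*), against 14.9% of all 32851 promoters, and 1 held a CArG box (*Dusp5*, 2 matches), against 1.63%. TGACGTCA and AGATAA were in none of the 8 and in 1.79% and 11.2% of all promoters. No match says only that these letters were not in this window.

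In control CFU-E cells, *Etv5* was the most abundant of the feedback genes per length, at 5.16 ± 1.21 CPM per kb of exon (SD, n = 3). *Dusp6* followed at 3.23 ± 0.809, *Spry4* at 2.13 ± 0.827 and *Spred1* at 1.69 ± 0.239 CPM per kb, and each of these neighbours overlapped in its library values with the next. *Spry1* (0.998 ± 0.219 CPM per kb), *Spred2* (0.642 ± 0.217) and *Spry2* (0.334 ± 0.0826) came below them, and *Spry1* did not overlap with *Spred1*. *Dusp5* was close to absent, at 0.0231 ± 0.0232 CPM per kb. In the Kit-lo libraries the order was another one. *Spry1* led at 1.89 ± 0.0307 CPM per kb, above *Spred1* (1.19 ± 0.514) without overlap, and *Etv5* was the third at 1.103 ± 0.590, overlapping with *Spred1*. *Dusp6* (0.331 ± 0.177) and *Spred2* (0.296 ± 0.0277) overlapped with each other, and *Spry4* was last at 0.0109 ± 0.0110 CPM per kb, overlapping with *Dusp5* (0.0617 ± 0.0420).

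**Figure D1:**
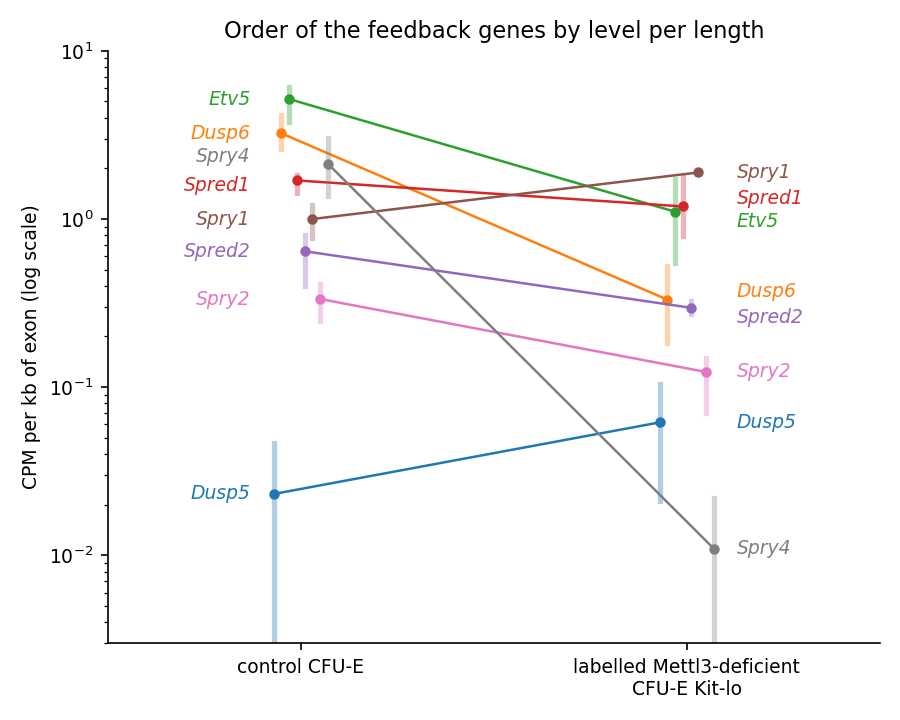
Mean RNA-seq level per kb of exon (CPM per kb, log scale) of the 8 feedback genes in control CFU-E libraries (left, n = 3) and in the Kit-lo libraries (right, n = 3), with pale bars from the lowest to the highest library, cut at the lower edge where a library had a count of 0. *Spry4* goes from the third place to last and *Spry1* from the fifth place to the first.

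DEGs were genes that changed at least 1.5 times at an adjusted p under 0.05 (edgeR, Benjamini-Hochberg). They numbered 1178 lower (9.83%) and 1453 higher (12.1%) in the Kit-lo libraries among the 11979 genes tested. Of the 8 feedback genes in the table, 6 passed the filter on low counts. Of those, *Spry4*, *Dusp6* and *Etv5* were called lower (3 of 6) and *Spry1* higher (1 of 6). Library values of the groups did not overlap for 4 lower genes (*Spry4*, *Dusp6*, *Etv5* and *Spred2*) and 1 higher gene (*Spry1*), against 24.0% and 23.5% of all genes tested. The median log2 fold change of the 6 genes was -1.67, also with *Spry4* set at its floor, and that of all genes was 0.01. Since the genes were chosen with this contrast in view, nothing is read from these counts.

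*Spry4*, a Sprouty inhibitor of receptor signalling to Ras and Raf, had 299, 114 and 167 counts in control CFU-E, or 14.3, 6.52 and 9.56 CPM. The Kit-lo libraries held 1, 0 and 2 counts, or 0.0519, 0 and 0.104 CPM. It was plainly counted in every control library and all but missing from every Kit-lo library. Summed counts were 580 against 3, and the control level was 204 times the Kit-lo level, with an exact 95% interval of 69.6 to 994 that covers counting error only. With each Kit-lo library set at a floor of 3 counts, the ratio of control to Kit-lo was 66.4. The fitted log2 fold change, -7.46, depends on the prior count of the fit and is no bound.

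*Dusp6*, the cytoplasmic phosphatase of ERK, stood at 12.98, 8.18 and 9.16 CPM in the control libraries. The Kit-lo values were 0.571, 1.65 and 0.887 CPM. All 3 Kit-lo libraries were far below the lowest control library, and the mean was 9.75 times higher in control (log2 fold change -3.27 ± 0.40 SE).

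*Etv5* stood at 25.0, 15.6 and 22.9 CPM in control CFU-E. It had 7.06, 4.27 and 2.24 CPM in the Kit-lo libraries, so the highest Kit-lo library stayed below the lowest control library. The mean was 4.68 times higher in control, with a log2 fold change of -2.22 ± 0.36 (SE).

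*Spry1*, another Sprouty gene, moved the other way. The 3 control libraries had 3.496, 2.23 and 2.98 CPM, and the Kit-lo libraries 5.40, 5.49 and 5.58 CPM. Every Kit-lo library was above every control library, and the Kit-lo values lay close together. The mean was 1.89 times higher in the Kit-lo libraries (log2 fold change 0.92 ± 0.29 SE). This call was lost when control replicate 2, control replicate 3 or any 1 of the Kit-lo libraries was left out, with log2 fold changes of 0.75 to 1.07 over all leave-outs. Exons of *Spry1* overlap those of the antisense gene *Gm42922* over 710 bases, and with the strand of counting not given in the sources used here, reads of the pair cannot be told apart.

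*Spred2*, which with neurofibromin turns Ras off, had 3.35, 3.72 and 1.83 CPM in control and 1.35, 1.505 and 1.25 CPM in the Kit-lo libraries. The groups did not overlap, but control replicate 3 lay near the Kit-lo values. Its log2 fold change was -1.11 ± 0.42 (SE), not called, and it was called at -1.37 without that library.

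*Spred1* had 12.4, 12.4 and 9.62 CPM in control and 5.40, 6.75 and 12.0 CPM in the Kit-lo libraries. Kit-lo replicate 3 lay within the control range, and the other Kit-lo libraries were lower. The log2 fold change was -0.51 ± 0.30 (SE), not called, and was -0.91, and called lower, without that library.

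*Spry2* was scarce in the RNA-seq libraries, with 15, 15 and 9 counts in control and 6, 3 and 6 counts in the Kit-lo libraries. These are 0.697 ± 0.172 and 0.257 ± 0.0962 CPM (SD, n = 3), which did not overlap, and the filter on low counts removed the gene from the test. Without the filter its log2 fold change was -1.44 ± 0.73 (SE). *Dusp5*, a nuclear ERK phosphatase, had 0, 1 and 2 counts in control and 5, 3 and 1 counts in the Kit-lo libraries, which overlap, and no fold is given. Its exons overlap those of the antisense gene *AC137853.2* over 547 bases, which leaves these few counts uncertain.

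**Figure D2:**
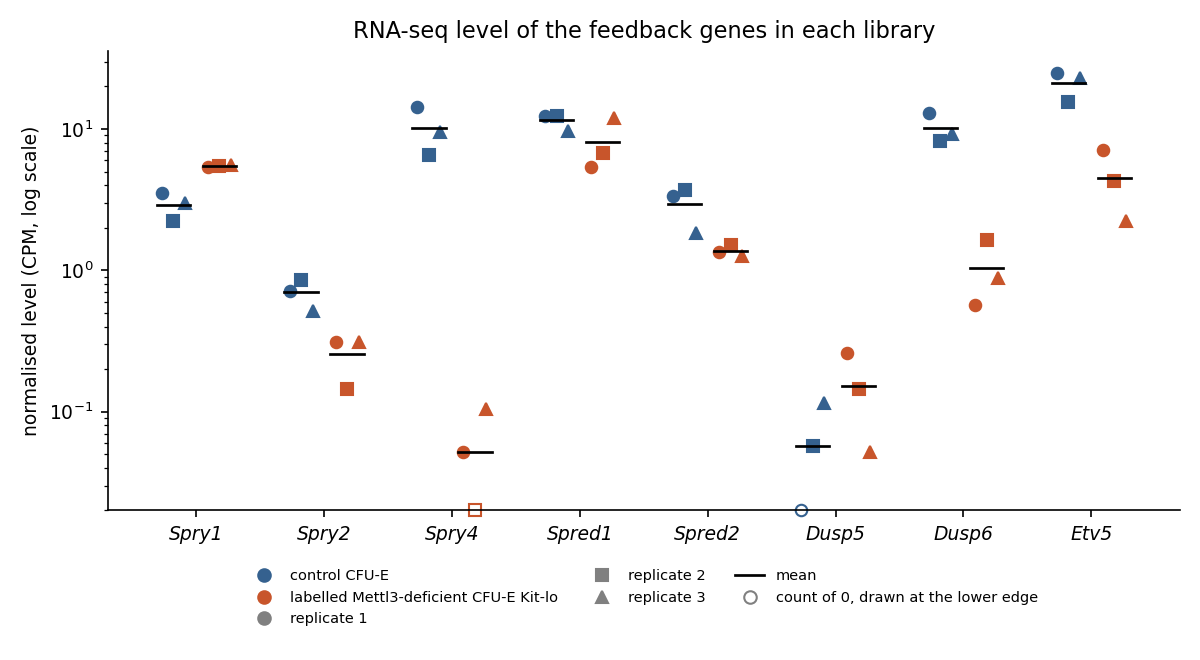
Normalised RNA-seq level (CPM, log scale) of the 8 feedback genes in each library of control CFU-E (blue) and in each Kit-lo library (orange), with the replicate by symbol, the mean as a bar, and counts of 0 as open symbols at the lower edge. *Spry4*, *Dusp6* and *Etv5* sit lower in all 3 Kit-lo libraries, *Spry1* sits higher, and *Spred1* overlaps.

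The libraries did not rank the genes alike. Control replicate 1 was the highest control library for *Spry4*, *Dusp6*, *Etv5* and *Spry1*, and replicate 2 the lowest for the same genes, whereas *Spred2* and *Spry2* were highest in replicate 2. Among the Kit-lo libraries, replicate 3 had the least *Etv5* and the most *Spred1*, while *Dusp6* was highest in replicate 2.

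For each gene with at least 10 CPM in a group, the gene with the most similar course over the 6 RNA-seq libraries was sought, as the smallest root mean square difference of log2 CPM centred on each gene's own mean. *Amigo2* was closest to *Spry4* (difference 0.476 on the log2 scale), with 7.75 CPM in control and 0 in every Kit-lo library. *Rgs9bp* was closest to *Dusp6* (0.209), with 9.50 CPM in control and 0.906 CPM in Kit-lo libraries. *Hbegf* was closest to *Spred1* (0.0851), with 5.77 and 4.02 CPM. *Ppp1r3e* was closest to *Etv5* (0.248), but it had only 0.885 and 0.119 CPM, so its course is uncertain.

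The lists of family relatives, relay genes and early genes were set with earlier results of these data known. Their counts and p-values are therefore a description. The family relatives of the feedback genes were read from a list of 11 Sprouty, Spred, PEA3 and MAPK phosphatase genes, of which 10 were tested. Of these, 1 was called lower and 3 higher, against 9.83% and 12.1% of all genes tested. Their median log2 fold change was 0.69. *Dusp1*, an early induced phosphatase of p38, JNK and ERK, fell from 115.8, 130.4 and 117.9 CPM to 27.8, 44.3 and 45.9 CPM (log2 fold change -1.62 ± 0.17 SE, edgeR adjusted p = 7.93e-05). *Dusp3* rose by a log2 fold change of 1.57 ± 0.35 (SE, edgeR adjusted p = 0.0063), *Dusp10*, which acts on p38 and JNK, by 1.55 ± 0.40 (adjusted p = 0.013), and *Dusp7*, a cytoplasmic ERK phosphatase, by 0.73 ± 0.20 (adjusted p = 0.0169). *Dusp10* lost its call without control replicate 1 or 3, and *Dusp7* without control replicate 2 or 3. *Dusp7* belongs to the same subgroup as *Dusp6* and stood on the other side of 0, with 9.77, 8.75 and 7.56 CPM in control and 14.5, 12.3 and 16.5 CPM in the Kit-lo libraries.

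The relay itself was read from 30 genes of the course from the receptors to ERK and its kinase targets, of which 29 were tested. Of these, 4 were called lower and 5 higher, against 9.83% and 12.1% of all genes tested. Their median log2 fold change was 0.09. Besides *Kit* (-3.44 ± 0.15 SE), which the gate selects, the lower genes included the adaptor *Grb2* (-1.05 ± 0.15 SE, edgeR adjusted p = 0.000473) and *Rps6ka3*, which encodes the ERK target kinase RSK2 (-1.24 ± 0.18 SE, adjusted p = 0.000566). *Rps6ka1*, which encodes RSK1, rose by 1.47 ± 0.12 (SE, edgeR adjusted p = 1.23e-05) and the docking protein gene *Gab1* by 0.96 ± 0.18 (adjusted p = 0.00275). *Hras* (0.69 ± 0.23 SE), the Raf activator *Shoc2* (0.61 ± 0.13 SE) and the erythropoietin receptor gene *Epor* (0.59 ± 0.08 SE) were also called higher, with edgeR adjusted p = 0.0384, 0.00603 and 0.000357. The call of *Hras* was lost without the filter, under the replicate block and in 5 of 6 leave-outs (all but that of Kit-lo replicate 3). *Epor* was lost under upper quartile scaling, without the filter, and without control replicate 3 or Kit-lo replicate 1, and *Shoc2* under upper quartile scaling and without control replicate 2 or Kit-lo replicate 1. *Araf* and *Braf*, which encode Raf kinases, and *Map2k1* and *Map2k2*, which encode MEK kinases, were not called, with log2 fold changes of -0.41 to 0.26. Of these, *Araf* (-0.41 ± 0.09 SE, edgeR adjusted p = 0.0074) fell short only of the fold threshold.

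Of 13 early genes that ERK and other signals induce, 8 were tested. Of those tested, 5 were called lower, against 9.83% of all genes tested, and their median log2 fold change was -1.61 over the 8. *Egr1* stood at 141.7, 152.4 and 120.5 CPM in control and at 2.08, 8.69 and 9.81 CPM in the Kit-lo libraries (-4.33 ± 0.40 SE, edgeR adjusted p = 3.70e-05). *Fosb* (-4.83 ± 0.51 SE, edgeR adjusted p = 7.91e-05), *Fos* (-3.32 ± 0.51, adjusted p = 0.000777), *Ier2* (-2.30 ± 0.41, adjusted p = 0.00192) and *Junb* (-0.91 ± 0.12, adjusted p = 0.000359) were the others. *Ccnd1*, *Ier3* and *Myc* were not called, at 0.14, -0.26 and -0.38, and *Myc* (edgeR adjusted p = 0.0253) fell short only of the fold threshold.

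**Figure D3:**
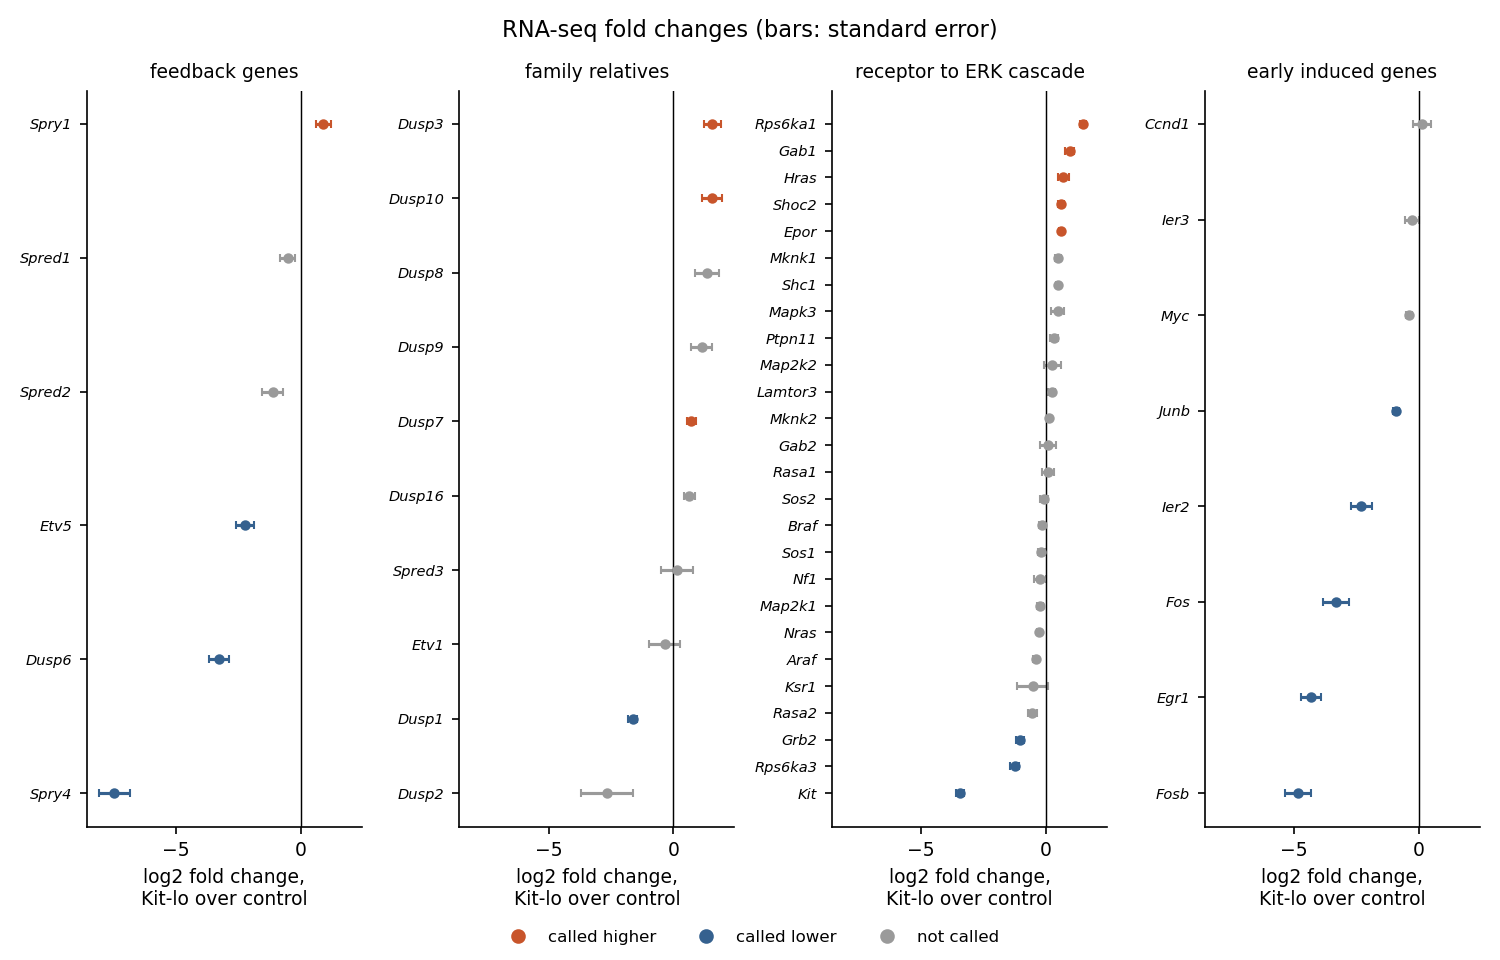
Log2 fold change of Kit-lo over control libraries with its standard error for the tested feedback genes, their family relatives, most of the genes from the receptors to ERK, and early induced genes, coloured by call. *Spry4*, *Dusp6* and *Etv5* lie at -7.46, -3.27 and -2.22, and *Braf* and *Map2k1* lie near 0.

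In the m6A libraries of control CFU-E cells, 904 of 11447 tested genes (7.90%) were called m6A-modified, that is, higher in the IP than in the input at an adjusted p under 0.05 in edgeR, and 900 (7.86%) were lower in the IP. Of the 8 feedback genes, 7 passed the filter. *Spry2* was m6A-modified (1 of 7). None was called lower in the IP by edgeR (0 of 7) or by DESeq2. At an unadjusted p under 0.05 in edgeR, 3 of the 7 were higher in the IP and 0 lower. Over all 11447 tested genes, 1969 were higher and 1696 lower at that limit. IP and input values did not overlap for 3 genes, all higher in the IP, against 32.2% of all tested genes higher and 28.7% lower. The median log2 fold change was 0.12 in the 7 genes and 0.06 in all genes.

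*Spry2* had 6.57 and 12.2 CPM in the input libraries and 28.0 and 22.9 CPM in the IP libraries, from 149 and 218 input counts and 1166 and 456 IP counts. Both IP libraries were above both input libraries, and the inputs differed from each other more than the IPs did. The IP mean was 2.70 times the input mean, with a log2 fold change of 1.44 ± 0.33 (SE). The call was lost without input replicate 1, where the value was 1.03, the lowest over the alternatives.

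*Dusp6* had 2.60 and 2.14 CPM in the inputs and 5.71 and 3.52 CPM in the IPs, and *Etv5* had 1.499 and 2.02 CPM in the inputs and 3.24 and 3.27 CPM in the IPs. For both genes the IP libraries lay above the inputs. The log2 fold changes, 0.97 ± 0.38 and 0.89 ± 0.39 (SE), were not called, though *Dusp6* was called without IP replicate 2, at 1.26.

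*Spry4* had 2.38 and 3.48 CPM in the inputs and 4.27 and 1.96 CPM in the IPs, with a log2 fold change of 0.12 ± 0.44 (SE). The IP libraries lay on either side of the inputs. The same held for *Spred1* (-0.09 ± 0.48 SE), with 4.75 and 1.61 CPM in the IPs around 3.09 and 3.88 CPM in the inputs, and for *Spry1* (-0.13 ± 0.66 SE), with 1.63 and 0.352 CPM around 1.32 and 0.956 CPM. *Spred2* varied least, with 6.30 and 5.79 CPM in the inputs and 5.42 and 5.98 CPM in the IPs (-0.09 ± 0.30 SE). The signs of *Spry1*, *Spred1*, *Spred2* and *Spry4* turned under other scalings or without an IP library, so no direction is given for them. *Dusp5* had 5 and 4 input counts and 0 and 3 IP counts and was not tested. IP replicate 2 was below IP replicate 1 for *Spry1*, *Spry2*, *Spry4*, *Spred1* and *Dusp6*.

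**Figure D4:**
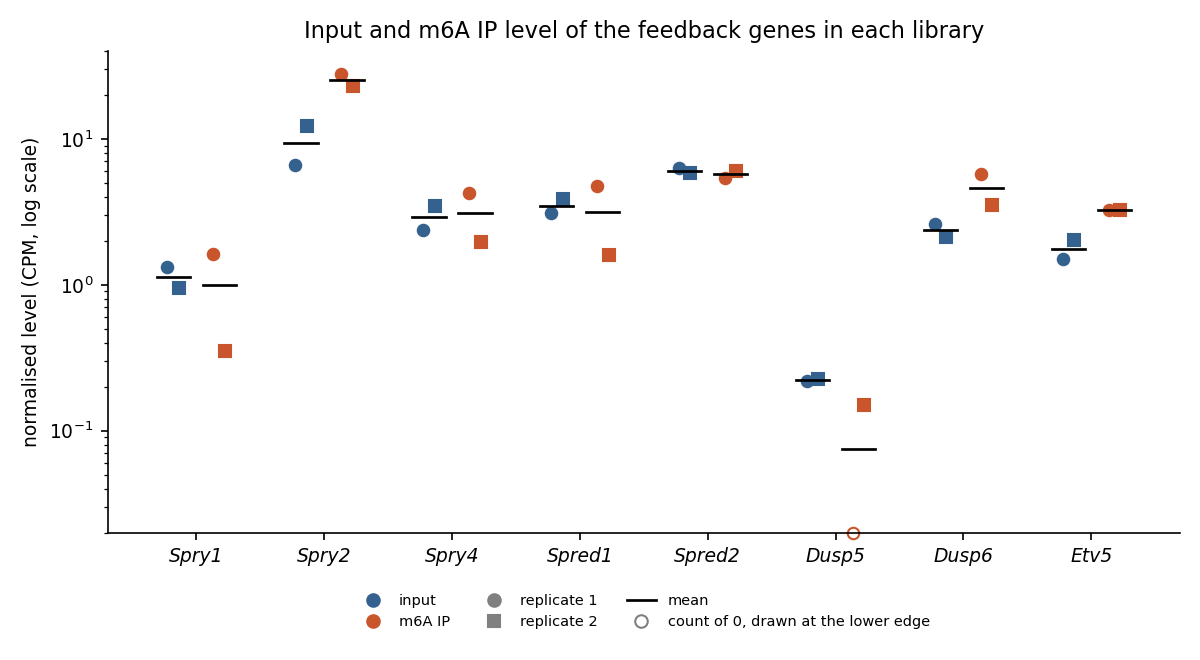
Normalised level (CPM, log scale) of the 8 feedback genes in each input (blue) and m6A IP (orange) library of control CFU-E cells, with the replicate by symbol, the mean as a bar, and a count of 0 as an open symbol at the lower edge. *Spry2* reaches 28.0 and 22.9 CPM in the IP, *Dusp6* and *Etv5* lie above their inputs, and the other genes overlap or are near 0.

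Levels of the same gene in control CFU-E stood far apart between the kinds of library, which were made by different methods and also differed in marker sums. Early progenitor markers summed to 807 to 808 CPM in the inputs, against 245 to 264 CPM in the RNA-seq controls. Lymphoid markers summed to 29.8 to 43.6 CPM in the inputs, against 1.25 to 1.43 CPM. Macrophage and granulocyte markers were lower in the inputs, at 10.1 to 10.8 and 6.7 to 9.2 CPM. Whether cell stage or type had a part in the gene levels was not tested. *Spry2* had 0.697 ± 0.172 CPM in RNA-seq (SD, n = 3) and 9.41 ± 4.02 CPM in the inputs (SD, n = 2), while *Etv5* had 21.2 ± 4.98 CPM and 1.76 ± 0.371 CPM. *Dusp6* had 10.1 ± 2.53 CPM in RNA-seq and 2.37 ± 0.329 CPM in the inputs, and *Spry4* 10.1 ± 3.93 and 2.93 ± 0.781 CPM. The 2 tables were therefore not compared by test.

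Side by side, the 3 genes called lower in the Kit-lo libraries, *Spry4*, *Dusp6* and *Etv5*, had IP over input log2 fold changes of 0.12, 0.97 and 0.89, none of them called, and *Spry2*, the m6A-modified gene, was too scarce in RNA-seq for the test. The other pathway genes tested in the m6A libraries were 6 family relatives, 30 genes of the relay and 9 early genes. Against 7.90% and 7.86% of all tested genes, 11 of these pathway genes were m6A-modified and 9 lower in the IP. Those called lower in the Kit-lo libraries and also m6A-modified numbered 1, *Fosb* (1.79 ± 0.54 SE in the IP, edgeR adjusted p = 0.0475), and 0 under scaling by library size or without input replicate 1, input replicate 2 or IP replicate 1. *Dusp3* (1.35 ± 0.29 SE, edgeR adjusted p = 0.0124) and *Shoc2* (1.19 ± 0.30, adjusted p = 0.0235) were higher in the Kit-lo libraries and m6A-modified, the former not without input replicate 1 and the latter not without input replicate 1 or IP replicate 1. *Hras* was higher in the Kit-lo libraries and lower in the IP (-4.72 ± 0.27 SE). *Grb2*, *Dusp1*, *Egr1* and *Ier2*, lower in the Kit-lo libraries, were lower in the IP, with log2 fold changes of -3.82, -1.01, -1.57 and -0.81. *Dusp1* lost its IP call under scaling by library size and without input replicate 1 or IP replicate 2, and *Ier2* under scaling by library size or upper quartile and without input replicate 1, input replicate 2 or IP replicate 2. These genes were picked out after their values were seen.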

How the data were processed

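The analysis used 6 RNA-seq libraries, 3 from control CFU-E cells and 3 labelled as Kit-low CFU-E cells of *Mettl3* knockout mice, and 4 SLIM-seq libraries from control CFU-E cells, 2 after m6A IP and 2 inputs. The 6 ProE samples were not analysed here. Smart-seq2 libraries were primed with oligo-dT, and SLIM-seq libraries were primed with oligo-dT carrying a molecular identifier, whose use in counting is not given in the sources used here. The authors deposited estimated counts per gene from fastp 0.23.4, Kallisto 0.48.0 (mm10) and tximport, without normalization. All deposited values were whole numbers. Groups and replicate numbers came from the labels.

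Counts were fitted in R 4.3.3 with edgeR 4.0.16 (TMM, filterByExpr, glmQLFit, glmQLFTest), 1 fit per experiment across all genes, with p-values adjusted by Benjamini-Hochberg over all tested genes. The SE is the absolute log2 fold change divided by the square root of F. DESeq2 1.42.0, other scalings, no filter, no fold threshold, a replicate block and leaving out each library were alternatives. The tests were checked on simulated data. The biological coefficient of variation was 19.1% and 21.9%. PCR copies are not independent molecules, so intervals cover counting error only.

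The members and lists were chosen with earlier results of these data known. All 10 members are named, with every other pathway gene called in the RNA-seq, *Mettl3* and *Kit*, and the most similar gene of each member of at least 10 CPM. Some genes of the pathway lists, which enter the counts, are not reported here by name. Coordinates and transcripts are GENCODE M21, promoters RefSeq. Figures were drawn with matplotlib 3.10.9.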

Additional observations from a re-analysis of the deposited data

How the results depend on the processing

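The members were chosen with these contrasts in view, so their calls under other settings are a description and no support. The calls of *Spry4*, *Dusp6* and *Etv5* as lower held under DESeq2, the other scalings, no filter, no fold threshold, the replicate block and every leave-out, with 3 to 4 members called lower over the leave-outs. Members called higher numbered 0 to 1 over the leave-outs and 0 under the replicate block, where *Spry1* was lost. Members m6A-modified numbered 0 to 2 over the leave-outs and 1 under the replicate block. Other pathway genes called higher in the RNA-seq numbered 4 to 11 over the leave-outs (5 without control replicate 2, 4 without control replicate 3) and 7 under the replicate block, those called lower 9 to 12 and 10. In the m6A comparison, other pathway genes called higher numbered 2 to 13 over the leave-outs, with 2 without input replicate 1, 5 without input replicate 2 and 4 without IP replicate 1, and those lower 6 to 10. The numbers 1 to 3 did not pair the RNA-seq libraries (correlations of deviations 0.0344, -0.017 and -0.0719), and the labels do not say that the numbers pair IP with input (0.205). The block raised the m6A calls over all genes from 904 higher and 900 lower to 1783 and 1755. Scaling by library size gave 934 higher and 608 lower, upper quartile 1451 and 754, and moved the median of all genes from 0.0563 to 0.213 and 0.184. Under those settings the log2 fold change of *Spry1* reached 0.06, that of *Spred1* 0.10 and that of *Spred2* 0.06. Without IP replicate 1, *Spry1*, *Spry4* and *Spred1* stood at -1.70, -0.59 and -1.12, and without IP replicate 2 at 0.50, 0.55 and 0.45. The cause was not tested. Counts under the filter limit what can be said of *Spry2* and *Dusp5* in the RNA-seq.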

Other observations

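Among the Kit-lo libraries, *Etv5* had 7.06, 4.27 and 2.24 CPM in replicates 1, 2 and 3, whereas *Fos* had 19.4, 46.9 and 111.5 CPM and *Ier2* 9.45, 23.7 and 42.4 CPM in the same libraries. The genes thus stood in opposite order over these 3 libraries, which is too few for a test.

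*Nras* and *Hras*, which encode Ras proteins, stood on opposite sides of 0 in the m6A libraries of control CFU-E. *Nras* was higher in the IP (log2 fold change 1.63 ± 0.24 SE, edgeR adjusted p = 0.00127), and *Hras* was lower (-4.72 ± 0.27 SE, edgeR adjusted p = 3.615e-06). *Nf1*, which encodes the neurofibromin that Spred proteins bind, was higher in the IP by 2.87 ± 0.31 (SE, edgeR adjusted p = 0.000178), from 2.38 and 2.75 CPM in the inputs to 21.4 and 16.0 CPM in the IPs, and was not called in the RNA-seq (-0.23 ± 0.24 SE).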
